A study of Mus musculus with 8 samples.

Results

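Expression of 10 marker genes of astrocytes and radial glia was examined in differentiated mouse cortical neurospheres with and without earlier ethanol. The genes were Gfap, Vim, Nes, Fabp7, Clu, Glul, S100b, Aqp4, Bcan and Apoe, and they were taken by symbol from the platform's probe annotation, out of 15094 genes named there. Together they had 12 of the 21582 probes, since Gfap and Clu had 2 probes each. Neurospheres, balls of neural progenitor cells that grow in suspension, were made from mouse cortex at gestational day 12.5. Their growth medium, which lacked serum, held leukaemia inhibitory factor at 0.15 ng/ml, with epidermal and basic fibroblast growth factors at 20 ng/ml each. The first 2 were removed to differentiate the cells, so that fibroblast growth factor stayed in the medium of every culture. Exposed cultures received ethanol at 320 mg/dl for 5 days of growth and none during the 3 days of differentiation, and control cultures received none. The labels give no strain, and nothing says which arrays stem from separate cultures, so that every p-value measures the spread between arrays, which may be technical. In RNA from whole cultures, fewer glial cells and less RNA per glial cell cannot be told apart.

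Radial glia are the progenitor cells of the embryonic cortex. They span its wall, first give rise to neurons and later turn into astrocytes. They carry the intermediate filament proteins nestin (Nes) and vimentin (Vim) and the brain lipid-binding protein (Fabp7). Maturing astrocytes add glial fibrillary acidic protein (Gfap), the water channel Aqp4, glutamine synthetase (Glul), the calcium-binding protein S100b, and the secreted lipid carriers Apoe and Clu. The switch from neurons to astrocytes is driven by cytokines of the leukaemia inhibitory factor family and by bone morphogenetic proteins. The exposed cultures were compared with controls to ask whether ethanol met during growth leaves a trace in gene expression after differentiation.

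Each of the 8 arrays carried control and exposed RNA together. Exposed RNA was labelled with Cy3 on replicates 1 to 4 and with Cy5 on replicates 5 to 8, and these sets are called the Cy3 and the Cy5 orientation. All values below are deposited log2 ratios minus the median of their array. No source used here says whether exposed RNA or a given dye was the numerator, so that no value tells in which condition a transcript was more abundant. For each probe the mean over the orientations is called the shared part. The Cy5 mean minus the Cy3 mean, divided by 2, is called the turning part. The ethanol difference lies in the shared part if ratios were formed by condition and in the turning part if they were formed by dye, and the dye difference lies in the other. Between 75.4% and 87.1% of the probes had a computable ratio on an array. Across the 15345 probes tested, arrays of the same orientation correlated at 0.143 to 0.372 and arrays of opposite orientation at -0.279 to 0.074 (6, 6 and 16 pairs of arrays, over probes, which are not independent).

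Of the 96 member values 83 were computable, and 13 were exactly 0, which was read as missing. Each gene had 1 probe that was computable on 3 or more arrays per orientation, and these 10 probes were tested. The label of the genes as glial could not be checked against the data, because a ratio holds no level of expression.

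Neither part of the ratio passed for a member gene, and the genes fell into unlike patterns. Vim was above the array median on 8 of 8 arrays and the tested Clu probe below it on 8 of 8. S100b was low in the Cy3 orientation and near the median in the Cy5 orientation. Bcan was high in the first and low in the second. Fabp7 and Glul stayed near the median on every array, and Gfap, Apoe, Nes and Aqp4 varied in sign between arrays.

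**Figure D1:**
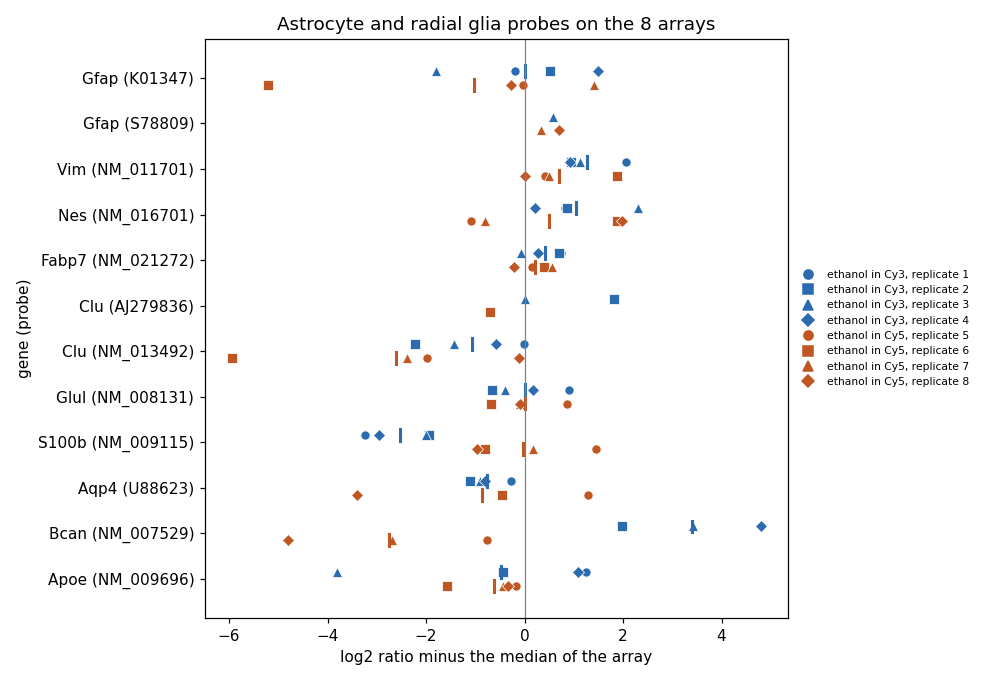
Log2 ratio minus the array's median (horizontal axis) for the 12 probes of the 10 genes (vertical axis), with 1 symbol per array, blue for ethanol-exposed RNA in Cy3 (replicates 1 to 4) and orange for Cy5 (replicates 5 to 8). Short bars are orientation means where at least 3 arrays had a value; the S100b and Bcan colours do not overlap, and replicate 6 holds the lowest Gfap and Clu values, at -5.20 and -5.95.

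In the shared part, 0 of the 10 member probes passed an adjusted p of 0.05 in limma (smallest adjusted p = 0.218), and 0.0% of all probes did. At an unadjusted p under 0.05 there were 3, Vim, Clu and S100b, against 13.9% of all probes. The median shared part was -0.25 over the members and -0.06 over all probes tested, and 5 of 10 members were positive against 46.1% of all probes. The members' median had no steady sign, being 0.03 without replicate 3, 0.15 without replicate 6 and 0.00 with exact zeros kept. In the turning part 0 of 10 passed (smallest adjusted p = 0.0532, for Bcan), where 1.56% of all probes passed. S100b and Bcan, 2 of 10, had an unadjusted p under 0.05, against 13.8%. The turning part was negative for 9 of 10 members, against 43.1% of all probes, but for only 3 of 10 with the values as deposited, because centring moves it. Its median was -0.19 over the members and 0.11 over all probes. The members' median was 0.13 with the values as deposited and 0.03 with exact zeros kept. For these settings no median over all probes was taken.

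The remaining counts need no model. The orientations did not overlap for 2 of 10 members, S100b and Bcan, and for 10.9% of all probes. Bcan had 3 values per orientation, where most probes had 4. Every value lay on 1 side of the median for 2 of 10, Vim and Clu, and for 3.57% of all probes. With 10 probes these shares were not tested against the background. With each orientation fitted alone, 0 of 10 members passed in either, where 0.515% of all probes passed in the Cy3 and 0.521% in the Cy5 orientation. At an unadjusted p under 0.05 (limma) the members were Vim, S100b and Bcan in the Cy3 and Clu and Bcan in the Cy5 orientation, where 17.4% and 10.6% of all probes reached it.

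To place the genes that stood out, the 250 bases before the start of Vim, S100b and Bcan are given from RefSeq (build GRCm38.p6), 5′ to 3′ on the strand of the gene. Of the 10 members 8 had such a promoter in the table, all but Clu and Aqp4. Capitals mark matches on either strand to the GC box GGGCGG, the TATA box TATAAA and the core TGGGAA of the Notch effector RBPJ. The AP-1 letters TGANTCA, the STAT letters TTCNNNGAA and the heat shock letters TTCNNGAA were searched as well. The GC box, TATA box and RBPJ letters do not overlap in these windows.
Vim (chr2:13574061-13574310, plus strand): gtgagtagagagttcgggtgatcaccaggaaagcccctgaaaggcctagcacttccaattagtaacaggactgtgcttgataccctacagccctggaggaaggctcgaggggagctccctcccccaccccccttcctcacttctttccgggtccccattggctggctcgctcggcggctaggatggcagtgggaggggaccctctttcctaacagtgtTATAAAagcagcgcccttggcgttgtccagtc
S100b (chr10:76253586-76253835, plus strand): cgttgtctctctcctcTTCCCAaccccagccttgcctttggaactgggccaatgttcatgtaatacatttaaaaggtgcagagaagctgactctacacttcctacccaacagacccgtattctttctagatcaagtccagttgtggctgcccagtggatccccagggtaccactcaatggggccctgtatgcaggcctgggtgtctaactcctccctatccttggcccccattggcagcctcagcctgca
Bcan (chr3:88000357-88000606, minus strand): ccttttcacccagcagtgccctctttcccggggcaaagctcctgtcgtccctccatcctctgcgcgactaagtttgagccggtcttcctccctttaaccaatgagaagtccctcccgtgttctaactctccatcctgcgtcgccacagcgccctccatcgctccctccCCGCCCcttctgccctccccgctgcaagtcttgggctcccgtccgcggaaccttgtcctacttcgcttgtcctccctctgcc
Vim held a TATA box 32 bases before its start, as 12.4% of 32851 promoters hold one anywhere in such a window. S100b held the RBPJ letters, found in 21.6%, and Bcan a GC box, found in 32.7%. None of the 3 windows held the AP-1, STAT or heat shock letters, which 6.75%, 7.02% and 7.17% of promoters hold. S100b and Bcan, the genes whose orientations did not overlap, shared none of these letters. Over the 8 genes, Gfap and Fabp7 also held the RBPJ letters and Nes and Glul the GC box, and 1 of the 3 Apoe starts in the table had the TATA box. A match is a run of letters and not a site shown to be used.

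Vimentin, a filament protein of radial glia, was the one member above the median throughout. Its values were 2.06, 0.94, 1.13 and 0.93 on replicates 1 to 4 and 0.42, 1.88, 0.50 and 0.01 on replicates 5 to 8. All were positive, replicates 1 and 6 being the highest and replicate 8 lying at the median, and the orientations overlapped. Its shared part was 0.98 ± 0.32 (SE of the limma fit, n = 8 arrays), a 1.98-fold departure that did not pass (adjusted p = 0.243), and leaving out any 1 array gave 0.79 to 1.10. The turning part was -0.28 ± 0.32.

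Nestin, whose filament protein marks neural stem cells, was less even. It read 0.82, 0.86, 2.30 and 0.22 in the Cy3 orientation and -1.09, 1.88, -0.81 and 1.97 in the Cy5 orientation. Replicates 3, 6 and 8 were high and replicates 5 and 7 fell below the median, so that only 6 of 8 arrays were positive. Over all arrays the shared part was 0.77 ± 0.44 (limma, n = 8 arrays, adjusted p = 0.465), and it was 0.42 without the arrays whose code ends in r (replicates 3, 4 and 8).

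Most markers of dividing cells lay on the same side as Vim and Nes. Of 12 tested probes of proliferation genes 9 had a positive shared part, where 46.1% of all probes did, with a median of 1.37. In limma 0 passed the adjusted threshold, and 9 had an unadjusted p under 0.05, 8 of them positive, against 13.9% of all probes. The 3 on the other side, named after their values were seen, were Mki67 at -0.39, Top2a at -0.59 and 1 of the 2 Plk1 probes at -1.31, while the other Plk1 probe was at 1.51. Their median per array was 0.72, 1.62, 3.30 and -0.20 on replicates 1 to 4 and 0.30, 2.24, 1.28 and 0.75 on replicates 5 to 8. The part of this in the Vim and Nes values was not tested.

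Gfap, the filament protein of mature astrocytes, showed no common side. Its tested probe (K01347) read -0.20, 0.52, -1.80 and 1.49 on replicates 1 to 4 and -0.04, -5.20, 1.42 and -0.27 on replicates 5 to 8. It was positive on 3 of 8 arrays, and replicate 6 lay far below the rest. The shared part was -0.51 ± 0.67 (limma, n = 8 arrays, adjusted p = 0.760), and it was 0.19 without replicate 6. The turning part, -0.51 ± 0.67, became 0.18 without the same array. Its range over the arrays, 6.69, exceeded that of 92.3% of the 10486 probes with 8 values. The other Gfap probe (S78809) was computable on 3 arrays only, at 0.58 on replicate 3, 0.33 on replicate 7 and 0.70 on replicate 8. On 2 of these 3 arrays, replicates 3 and 8, the Gfap probes lay on opposite sides of the median. The S78809 value on replicate 3 may stand for a ratio of 1, as described under processing, and whether it was measured was not tested.

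Of the 7 tested probes of other intermediate filament genes 2 had a positive shared part, against 46.1% of all probes, with a median of -0.22. In limma 0 passed in either part (3 and 1 had an unadjusted p under 0.05, against 13.9% and 13.8% of all probes). These shares over all probes hold for the lists below too. The gene furthest from 0 in both parts was Prph, the peripherin of peripheral neurons, at -1.34 ± 0.44 and 1.50 ± 0.44 (limma, n = 8 arrays, adjusted p = 0.250 and 0.150).

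Fabp7, a fatty acid carrier of radial glia and a target of Notch signalling, was the steadiest member. Its values were 0.74, 0.70, -0.07 and 0.27 on replicates 1 to 4 and 0.16, 0.40, 0.55 and -0.22 on replicates 5 to 8. No array departed from the median by as much as 2-fold, the orientations overlapped, and only 1.22% of the probes with 8 values had a smaller range than its 0.96. The shared part was 0.32 ± 0.27 and the turning part -0.09 ± 0.27 (limma, n = 8 arrays, adjusted p = 0.633 and 0.919).

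Of 5 tested probes of other fatty acid binding protein genes 1 had a positive shared part, and 0 passed in either part in limma (0 and 2 had an unadjusted p under 0.05). The largest parts were those of Fabp6, the bile acid binding protein of the ileum, at -0.91 ± 0.54 and -1.64 ± 0.54 (limma, n = 8 arrays, adjusted p = 0.476 and 0.206).

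Glutamine synthetase, which lets astrocytes turn glutamate taken up from synapses into glutamine, centred on the median. Glul read 0.90, -0.67, -0.39 and 0.18 in the Cy3 orientation and 0.86, -0.68, -0.09 and -0.09 in the Cy5 orientation. Replicates 1 and 5 were the high arrays and replicates 2 and 6 the low ones in an almost equal spread, and both orientation means were 0.00, with SDs of 0.69 and 0.63 (n = 4 arrays each). Only 8.2% of the probes with 8 values had a smaller range. The limma SE of either part was 0.31, and the larger departure of Vim, 0.98 with an SE of 0.32, did not pass.

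Other genes of glutamate and glutamine handling had a positive shared part at 3 of 9 tested probes, with a median of -0.64 and 0 past the threshold in limma, where 46.1% of all probes were positive. At an unadjusted p under 0.05 there were 5 of 9, against 13.9% of all probes. The Slc1a2 and Slc1a3 probes among the 9 are also counted with the other astrocyte genes below. A probe of the glutamate transporter gene Slc1a1 had the largest shared part of the list, at -1.41 ± 0.50 (limma, n = 8 arrays, adjusted p = 0.265). The other Slc1a1 probe was at -0.64 ± 0.57. The transporter gene Slc1a2 had the largest turning part, at -0.68 ± 0.66 (limma, n = 7 arrays, adjusted p = 0.717).

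Aqp4, the water channel of astrocyte endfeet, was below the median on 6 of 7 arrays with a value. It read -0.27, -1.11, -0.90 and -0.80 on replicates 1 to 4, and 1.29, -0.45 and -3.41 on replicates 5, 6 and 8. The Cy3 values were close together and the Cy5 values spread widely on both sides of them. The shared part was -0.81 ± 0.52 (limma, n = 7 arrays, adjusted p = 0.509). It was -0.17 without replicate 8 and -1.35 without replicate 5, so that its size rested on these arrays. Of 4 tested probes of other aquaporin genes 2 had a positive shared part, and 0 passed in either part in limma (1 and 2 had an unadjusted p under 0.05). The largest shared part was that of Aqp8, at -0.99 ± 0.38 (limma, n = 8 arrays, adjusted p = 0.296), and the largest turning part that of Aqp2, at -1.91 ± 0.84 (limma, n = 7 arrays, adjusted p = 0.357).

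S100b, a calcium-binding protein that astrocytes make and release, had separate values in the orientations. Its values were -3.24, -1.93, -2.0 and -2.95 on replicates 1 to 4 and 1.45, -0.81, 0.17 and -0.97 on replicates 5 to 8. Every Cy3 value lay below every Cy5 value, and the Cy5 values surrounded the median. The Cy3 mean was -2.53 ± 0.66 and the Cy5 mean -0.04 ± 1.12 (SD, n = 4 arrays each), a difference of 2.49 or 5.61-fold between the orientations. The turning part alone, the measure comparable with the shared fold of Vim, was 2.37-fold. In the Cy3 orientation alone the adjusted p was 0.0852 (limma).

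The shared and turning parts of S100b were thus alike in size, at -1.28 ± 0.36 and 1.24 ± 0.36 (limma, n = 8 arrays, adjusted p = 0.218 and 0.139). With the values as deposited the turning part was 1.56 and passed, at an adjusted p of 0.0494; over the 18 alternatives that p ran from 0.0494 to 0.442. Leaving out any 1 array gave turning parts of 1.00 to 1.40.

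The other S100 genes tested had a positive turning part for 6 of 8 probes, where 8731 of all 15345 probes had one. Their median was 0.66, against 0.11 over all probes, and the difference was not tested. In limma 0 passed (1 had an unadjusted p under 0.05, against 13.8% of all probes). The largest shared and turning parts belonged to S100a6, at -1.18 ± 0.80 and 1.72 ± 0.80 (limma, n = 7 arrays, adjusted p = 0.531 and 0.390), with Cy3 values from -7.73 to 0.17 and Cy5 values from 0.10 to 0.86.

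Bcan encodes brevican, a chondroitin sulfate proteoglycan of the brain's extracellular matrix. It had the widest gap between the orientations among the members. It read 1.98, 3.42 and 4.81 on replicates 2, 3 and 4 and -0.77, -2.70 and -4.80 on replicates 5, 7 and 8. Replicates 1 and 6 had no computable value. All Cy3 values were positive and all Cy5 values negative, a pattern that 4.29% of all probes showed. Of those 15345 probes 10486 had 8 values, where Bcan had 6, so fewer signs had to match for Bcan. The means were 3.40 ± 1.42 and -2.76 ± 2.02 (SD, n = 3 arrays each), a difference of -6.16 or 71.5-fold between the orientations. The turning part alone, the measure comparable with the shared fold of Vim, was 8.46-fold.

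The turning part of Bcan was -3.08 ± 0.60 (limma, n = 6 arrays), which ranked 131 in size among the 15345 probes, and its adjusted p of 0.0532 missed the threshold. Without replicate 5 it was -3.58 with an adjusted p of 0.0398, and over its 16 alternatives the adjusted p ran from 0.0398 to 0.157. With values of exactly 0 kept it was -2.14. The shared part was 0.32 ± 0.60. Within the orientations the adjusted p was 0.129 for Cy3 and 0.386 for Cy5 (limma).

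Of 6 tested probes of other lectican, link protein and tenascin genes 0 passed in limma (1 had an unadjusted p under 0.05 in the turning part), and their turning parts had a median of 0.23. Acan, the aggrecan of cartilage and of perineuronal nets, had the largest shared and turning parts, at 0.65 ± 0.40 and -0.96 ± 0.40 (limma, n = 8 arrays, adjusted p = 0.491 and 0.328). Like Bcan, it had only positive Cy3 values, 0.43 to 3.95, and only negative Cy5 values, -0.65 to -0.04. That pattern was shown by 4.29% of all probes. The difference between Bcan and these genes was not tested. Nes, the neighbour of Bcan on mouse chromosome 3, had a turning part of -0.28.

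**Figure D2:**
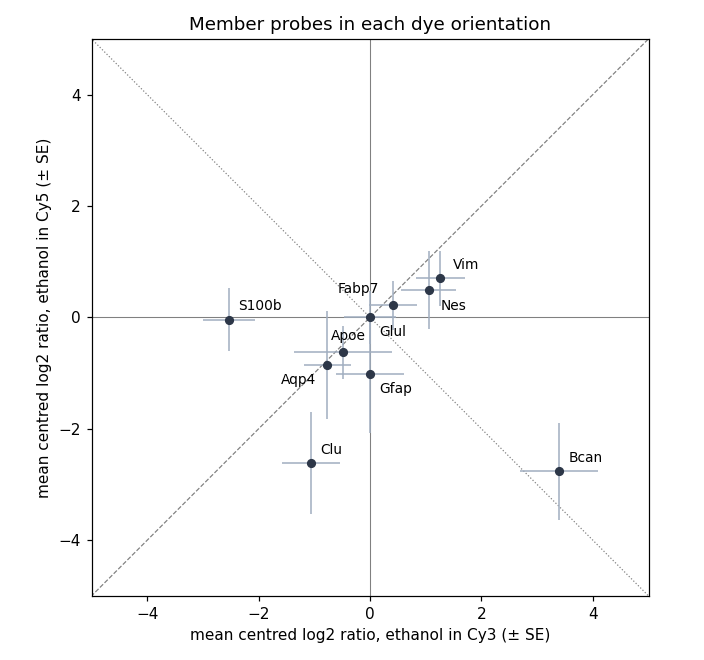
Mean centred log2 ratio of the 10 tested probes in the Cy3 orientation (horizontal axis) against the Cy5 orientation (vertical axis), with SEs from the fit within each orientation. The dashed line marks equal means and the dotted line opposite means; Bcan lies near the dotted line at 3.40 and -2.76, S100b at -2.53 and -0.04 lies on neither, and Clu, at -1.06 and -2.61, is the lowest gene below the median in both.

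Clusterin and apolipoprotein E are secreted carriers of lipids and proteins that astrocytes release, and their transcripts are abundant in astrocytes. The tested Clu probe (NM_013492) read -0.01, -2.22, -1.43 and -0.58 on replicates 1 to 4 and -1.98, -5.95, -2.38 and -0.11 on replicates 5 to 8. All 8 values were negative, with replicate 6 far below the rest and replicates 1 and 8 close to the median, and the orientations overlapped. Its shared part was -1.83 ± 0.57 (limma, n = 8 arrays), a 3.56-fold departure that did not pass (adjusted p = 0.232). It was -1.28 without replicate 6 and -2.25 without replicate 8. In size it ranked 304 among the 15345 probes.

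The other Clu probe (AJ279836) did not repeat this. It was computable on 3 arrays, at 1.81 on replicate 2, 0.00 on replicate 3 and -0.71 on replicate 6, where the tested probe read -2.22, -1.43 and -5.95. The probes thus lay on opposite sides of the median on replicate 2, and the result for Clu rests on 1 of its probes.

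Apoe read 1.24, -0.43, -3.80 and 1.09 on replicates 1 to 4 and -0.18, -1.57, -0.43 and -0.34 on replicates 5 to 8. It was negative on 6 of 8 arrays, replicate 3 was the lowest, and the Cy3 values enclosed the Cy5 values. Its shared part was -0.55 ± 0.53 (limma, n = 8 arrays, adjusted p = 0.668) and was 0.00 without replicate 3. The turning part was -0.08 ± 0.53.

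Apoc1, which lies beside Apoe on chromosome 7 and encodes another apolipoprotein, had a turning part of -2.76 ± 0.47 that passed (limma, n = 8 arrays, adjusted p = 0.0158). All its Cy3 values, 0.28 to 3.68, lay above all its Cy5 values, -5.46 to -2.48. The call ended without replicate 1, 6 or 7, at adjusted p of 0.0565, 0.0573 and 0.0511, and without the r arrays, at 0.225. It was the only one of 11 tested probes of other apolipoprotein and lipoprotein receptor genes to pass in the turning part, where 1.56% of all probes passed, and 0 passed in the shared part (5 had an unadjusted p under 0.05, against 13.9% of all probes). Of the 11, 3 were positive in the shared part, against 46.1% of all probes, with a median of -0.71, and the largest shared part was that of the endocytic receptor gene Lrp2, at 1.61 ± 0.48 (limma, n = 7 arrays, adjusted p = 0.231).

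**Figure D3:**
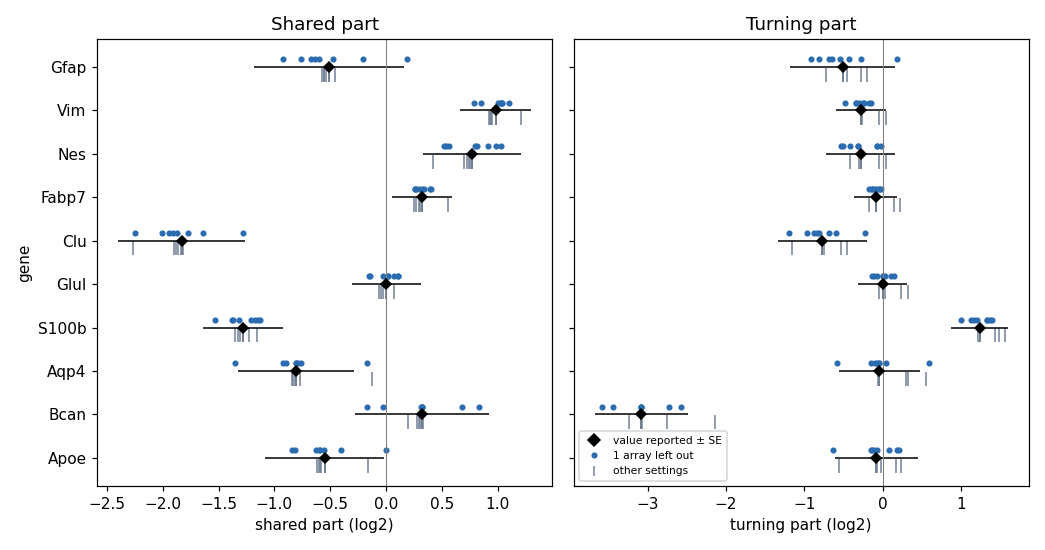
Shared part (left) and turning part (right) on the log2 scale (horizontal axes) for the 10 tested genes (vertical axis), with the reported value ± SE (diamond), each value with 1 array left out (dots) and the values under the other settings (ticks). Vim, Nes, Fabp7, Clu, S100b and Aqp4 keep 1 sign in the shared part, Clu, S100b and Bcan keep 1 sign in the turning part, and Gfap, Vim, Nes, Fabp7, Glul, Aqp4 and Apoe cross 0 in the turning part under at least 1 setting.

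Genes that mark the same cells but are not members were split in direction. Of 18 tested probes of other astrocyte genes 8 were positive in the shared part, where 46.1% of all probes were. Their median was -0.07, and 0 passed in limma (2 had an unadjusted p under 0.05, against 13.9% of all probes). In the turning part 1 passed on the positive side, where 0.769% of all probes did, and 0 on the negative side. It was Cspg5, a proteoglycan of the nervous system, at 2.27 ± 0.39 (limma, n = 8 arrays, adjusted p = 0.0185), with Cy3 values of -2.80 to -0.24 and Cy5 values of 1.75 to 4.06. Its sign was opposite to that of Bcan, and its call ended without replicate 2, 3, 4, 6, 7 or 8 (adjusted p 0.0524 to 0.0702) and without the r arrays (0.313).

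Of 24 tested probes of other radial glia genes 10 were positive in the shared part, where 46.1% of all probes were, with a median of -0.33. In limma 0 passed in either part, and 5 had an unadjusted p under 0.05 in the shared part, all negative, and 2 in the turning part, where 13.9% and 13.8% of all probes did. The smallest adjusted p was 0.213 in the shared part and 0.0572 in the turning part. The latter belonged to a Pax6 probe with a turning part of 3.82 ± 0.84, opposite in sign to that of Bcan. The other Pax6 probe was at 0.56 ± 0.56.

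The cytokine and bone morphogenetic protein pathways that turn progenitors into astrocytes had a positive shared part at 5 of 20 tested probes, where 46.1% of all probes were positive, and the difference was not tested. Their median of -0.11 was near the -0.06 of all probes, and 0 passed in limma (3 of 20 had an unadjusted p under 0.05, against 13.9% of all probes). In the turning part 1 passed on the negative side, where 0.789% of all probes did. It was Il6st, which encodes gp130, the signal-transducing receptor subunit of the leukaemia inhibitory factor family, at -3.73 ± 0.52 (limma, n = 8 arrays, adjusted p = 0.00412). Its Cy3 values were 3.97 to 5.82 and its Cy5 values -4.39 to 0.12. The call ended without the r arrays (adjusted p = 0.191).

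For other cell types, the median shared part was -0.05 over 17 probes of neuronal genes and 0.04 over 12 of oligodendrocyte lineage genes. It was 0.01 over 8 probes of microglia and macrophage genes, -0.17 over 8 of endothelial and mural genes and -0.21 over 4 of meningeal fibroblast genes. The median turning parts of these 5 lists ran from -0.05 to 0.41. In limma 0 probes of these lists passed in either part. At an unadjusted p under 0.05, which 13.9% of all probes reached in the shared part and 13.8% in the turning part, there were 4 neuronal, 1 oligodendrocyte and 1 microglial probe in the shared part, all negative. In the turning part there were 1 neuronal, 1 oligodendrocyte, 1 microglial and 2 endothelial or mural probes. The 4 neuronal probes, named after their values were seen, were Dcx at -1.88, Elavl4 at -1.69, Ina at -1.15 and Syt1 at -1.07. Of the 17 neuronal probes 8 were positive in the shared part, where 46.1% of all probes were, and the list median was -0.05. The highest were Stmn3 at 0.83, Mapt at 0.81 and Tbr1 at 0.80.

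**Figure D4:**
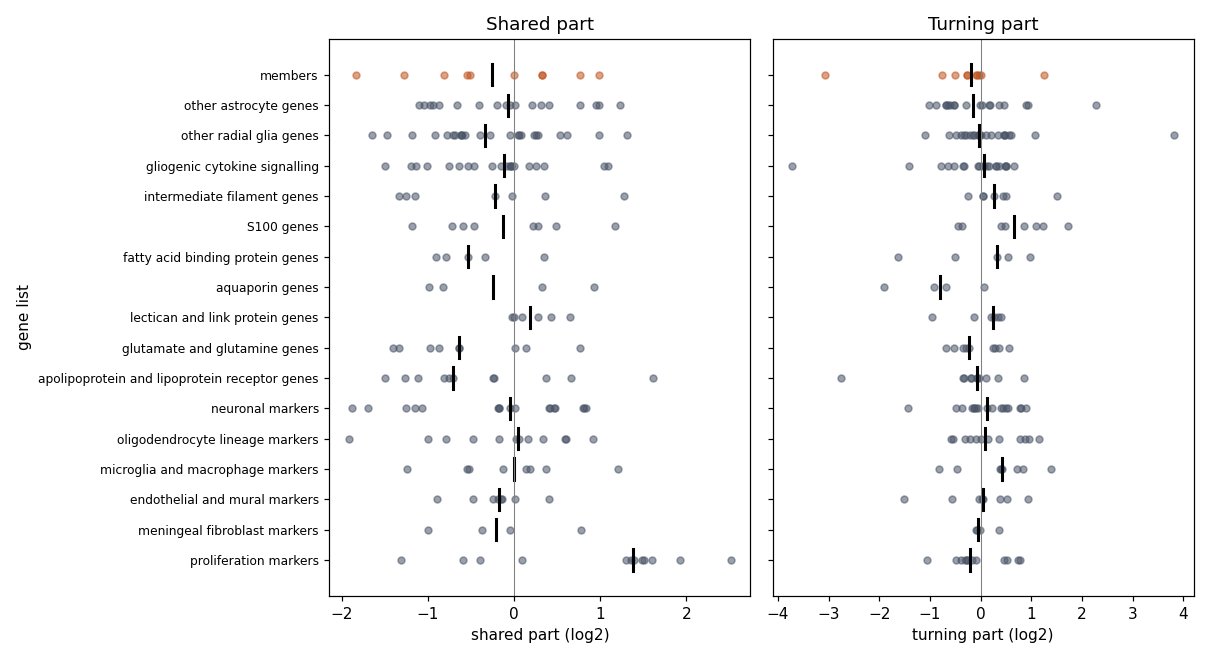
Shared part (left) and turning part (right) on the log2 scale (horizontal axes) of each tested probe, by gene list (vertical axis), with members in orange, other genes in grey and the list median as a black bar. The proliferation genes stand furthest from 0 in the shared part, with a median of 1.37; the members' median, -0.25, changes sign without replicate 3 or 6.

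Likeness of pattern was measured as the root mean square difference of centred log2 ratios over the 8 arrays, against 8679 probes of other named genes. Nearest to Vim were Eif4a3 at 0.33 and Idh3b at 0.37, where the median probe differed by 1.73. Nearest to Nes were Tmpo at 0.47 and Exosc3 at 0.49, and nearest to Fabp7 Zfp618 and Polr1c, each at 0.22. Gfap was nearest to Gfra4 at 0.84, Clu to Acrbp at 0.82, S100b to 1700123O12Rik at 0.81, Glul to 2010003K15Rik at 0.33 and Apoe to Hes5 at 0.65. The next in order were Mbl2 for Gfap at 1.10, Trip4 for Clu at 1.07, Mdm1 for S100b at 0.82, Tmem9b for Glul at 0.34 and Nat8f1 for Apoe at 0.73. Aqp4 and Bcan, which lacked a value on at least 1 array, were not compared. Each of the other 8 members was nearer to a gene outside the list than to another of the 8. Nearly all of the 8679 probes lie outside the list, so this was close to fixed in advance and tells nothing about likeness among members. In order of nearness, the nearest member stood between 188 (Apoe, for Gfap) and 2464 (Glul, for S100b), which was not tested. The closest pair among them, Fabp7 and Glul, differed by 0.71, and in order of nearness Glul stood at 1140 for Fabp7 and Fabp7 at 396 for Glul. The measure is not scaled by spread. Both genes had small ranges, 0.96 and 1.57, so the pair can lie close without a like pattern.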

How the data were processed

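The file used holds log2 ratios, 1 per probe and array, as the authors deposited them, with no intensities. How the arrays were scanned, background-corrected and normalized is not given in the sources used here. Per the labels' protocols, 1 µg of total RNA was labelled with a dendrimer kit for Cy3 and Cy5. On each array 100.0% of the values below a ratio of 0.1 equalled a ratio rounded to 0.001 plus 1 constant (tolerance 0.0011, log2). The highest value equals a ratio of 100000 plus that constant, and it and exact zeros were taken as missing. No member value lay at the rounding floor. The deposited values of Aqp4 on replicate 6 (-0.219), Apoe on replicate 5 (0.131) and Gfap probe S78809 on replicate 3 (0.26) equalled their array's constant. Apoe on replicate 1 (0.862) lay beside its constant (0.863). Such a value would stand for a ratio of 1. Whether these were measured was not tested, and they were kept. Array medians ran from -0.435 to 0.516, and 7 of 8 lay over 0.1 from 0, so arrays were centred on them.

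Probes computable on 3 or more arrays per orientation (15345) were fitted with limma 3.58.1 in R 4.3.3 (lmFit, eBayes), with Benjamini-Hochberg adjustment over all of them and a threshold of 0.05. The fit was tested on simulated data. Means ± SD are over arrays. Alternatives changed the centring, the missing values, the filter, the variance moderation, the scale, a block and the arrays used. Symbols come from the platform's annotation, which is old, updated by Entrez number to GRCm38.p6 (15957 of 16635 probes with 1 symbol matched). The members, the 16 gene lists and the tests were chosen with earlier results of these data known. Some lists share probes (Slc1a2, Slc1a3, Tnc, Ina, Nefm and Pdgfra), which are counted in each, so counts of such lists are not separate. Named were every member probe, genes of the lists that passed, the genes with the largest parts in each family list, and the 2 nearest in pattern. Pax6 and some proliferation and neuronal genes were named outside this rule, after their values were seen. Arrays sharing a code number across orientations (3, 5 and 1r) had correlations of deviations of 0.014, -0.016 and 0.044, so they were not treated as pairs.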

Additional observations from a re-analysis of the deposited data

Results flagged for a closer look

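Bcan was noted because every Cy3 value was positive and every Cy5 value negative. Its turning part was -3.08, and the test of the difference between the orientations missed the adjusted threshold (limma, adjusted p = 0.0532). The pattern was shown by 658 of 15345 probes, or 4.29%. Most of these probes had 8 values, where Bcan had 6, so the share is no equal measure. Among 17 sets of 4 member values, 0 held an array far from the other 3 by Dixon's criterion, although replicate 6 was the lowest for Gfap and Clu.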

How the results depend on the processing

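The call for the shared part, 0 of 10 members past the threshold, held under each of the 18 alternatives, with 8 to 12 member probes tested. In the turning part 1 member passed with values as deposited (S100b), and 0 to 1 with 1 array left out (Bcan without replicate 5). Members with an unadjusted p under 0.05 in the shared part numbered 3 to 5 of 10 with 1 array left out. Without the r arrays they numbered 2 of 9, and S100b was no longer among them. In the turning part they numbered 1 of 8 where all 8 arrays had to be computable and 1 of 9 without the r arrays. Bcan was not tested under these settings. Of 12 member probes tested with exact zeros kept, the orientations of 1 did not overlap and 1 kept 1 sign. Of 10, 1 kept 1 sign with values as deposited and 1 with each array's highest value kept. For these counts, and those at an unadjusted p, the shares over all probes were taken only in the fit reported above. Whether the members or the background changed was not tested. Over all probes 239 passed in the turning part, against 417 as deposited, 73 without the r arrays and 143 to 188 with 1 array left out, and 1 passed in the shared part with highest values kept. As deposited, turning parts changed sign for Vim (0.04), Nes (0.04), Fabp7 (0.22), Glul (0.32), Aqp4 (0.32) and Apoe (0.24), as did Glul's shared part (-0.05), since centring shifts the turning part. With zeros kept they changed for Fabp7 (0.15), Glul (0.24), Aqp4 (0.30) and Apoe (0.17), and Glul's shared part was -0.06. Glul read -0.03 and 0.00 with highest values kept, and 0.00 and 0.03 with arrays scaled to equal spread, and Aqp4's turning part was 0.56 without the r arrays. With 1 array left out, Glul ran from -0.15 to 0.11 (shared) and -0.14 to 0.15 (turning), Gfap from -0.92 to 0.19 and -0.92 to 0.18, Bcan's shared part from -0.17 to 0.83, and the turning parts of Aqp4 from -0.58 to 0.59 and of Apoe from -0.63 to 0.21. None of these had passed, and for the changes other than centring the cause was not tested. The array code number as a replicate block, with a correlation of 0.00891, left the counts at 0 and 0 (Bcan adjusted p = 0.0522). The number of arrays and the missing intensities limit precision.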
